A study of Triticum aestivum with 8 samples.

Results

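Among the 37826 non-control probes of an Agilent wheat array, 238 carry a name that begins with ncbi_gi_, followed by a GI number and a second number. These 238 probes, each with a GI number of its own, were chosen by name alone and are called GI-named probes here. A GI number is the serial number that NCBI gave to a sequence record. The names say which record a probe goes back to, not which gene it measures, and no gene name or function is given to a probe here. Most other probes are named after assembled wheat contigs.

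The arrays were hybridised with Cy3-labelled total RNA of a synthetic hexaploid wheat, a wheat line made by combining the genomes of its ancestors. All plants were first grown for 3 weeks at 24 °C. There were 2 arrays for each of 4 groups: first leaf at 24 °C, first leaf after a further 12 weeks at 4 °C, crown at 24 °C, and crown after a further 6 weeks at 4 °C. The labels define crown tissue as shoots that hold the shoot apical meristem, and per the labels the 2 arrays of a group come from independent experiments. The 4 °C plants were therefore older than the 24 °C plants, and the time in the cold differs between the tissues. Temperature, age, weeks of cold, scan day and the version of the scanner software thus cannot be told apart. The descriptions of the crown arrays at 24 °C speak of leaves, while their titles and tissue entries say crown. Across the 238 GI-named probes, which are not independent replicates, their levels correlated at 0.886 to 0.892 with the crown arrays at 4 °C and at 0.728 to 0.737 with the leaf arrays at 24 °C.

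Wheat exposed to low temperature above freezing acclimates: it builds up protective proteins and changes its membranes, sugars and photosynthesis, and many transcripts rise or fall. The crown, at the base of the shoot, holds the meristem from which a winter plant regrows, while the leaf is the photosynthetic organ. Prolonged cold also brings about vernalization, the acquired readiness to flower.

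A level in what follows is the log2 processed signal of a probe minus the 75th percentile of its array, so that 0 is the 75th percentile. Levels of different probes also reflect how well each probe binds its target and are not amounts of RNA. In tissue RNA, fewer cells of a type and less RNA per cell cannot be told apart.

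The GI-named probes were dim as a group. Between 108 and 156 of the 238 were well above background on an array, the scanner software's own call. The share ran from 45.4% and 49.2% in leaf at 24 °C through 50.8% and 52.1% in leaf at 4 °C and 52.1% and 52.9% in crown at 24 °C to 63.9% and 65.5% in crown at 4 °C. Both crown arrays at 4 °C stood above all the others. Over all probes, too, both crown arrays at 4 °C were the highest, at 85.6% and 84.9%, and both leaf arrays at 24 °C the lowest, at 73.1% and 72.1%. The lowest level that counted as well above background was also lower on the 4 °C arrays, at −8.47 to −7.89, than on the 24 °C arrays, at −6.35 to −6.04, and the part of this in the detection counts was not tested.

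Of the 238, 68 or 28.6% were above background on no array, against 3990 of the 37826 probes of the array. On all 8 arrays 91 or 38.2% were above background, against 65% of all probes, and the remaining members on between 1 and 7 arrays. Among the other name families, 7.61% of the wheat contig probes and 14.8% of the MUGEST contig probes were above background on no array. The median over probes of the mean level was −5.96 for GI-named probes and −2.69 for all probes, and 118 members, 49.6%, lay below the 25th percentile of all probes. Only 5 lay above the 90th percentile, and none was saturated on any array.

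The 5 members with the highest mean level were ncbi_gi_28916359_178, ncbi_gi_259020_184, ncbi_gi_32128773_1098, ncbi_gi_32128933_1112 and ncbi_gi_32128984_85. On the leaf arrays at 24 °C the level of ncbi_gi_28916359_178 was 7.63 and 7.72, followed by 5.44 and 5.49 in leaf at 4 °C, 3.52 and 3.43 in crown at 24 °C and 3.25 and 3.18 in crown at 4 °C. Leaf was above crown on every array, and within leaf the 24 °C arrays were the higher. Its level fell by 2.21 in the cold leaf (SE 0.0662, adjusted p = 3.74e-06, limma with Benjamini-Hochberg adjustment), while the crown difference of −0.26 was under 2-fold.

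The level of ncbi_gi_259020_184 was 4.68 and 4.88 in leaf at 24 °C, 2.89 and 2.95 in leaf at 4 °C, 5.32 and 5.01 in crown at 24 °C and 2.66 and 2.67 in crown at 4 °C. Every 4 °C array was below every 24 °C array in both tissues. It fell by 1.85 in leaf (SE 0.12, adjusted p = 4.84e-05, limma with Benjamini-Hochberg adjustment) and 5.66-fold in crown (SE 0.12 on the log2 scale, adjusted p = 1.49e-05). Of the other members of this set, ncbi_gi_32128984_85 also fell in both tissues, by 1.68 in leaf and 1.38 in crown, with limma adjusted p of 0.000129 and 0.000286. The level of ncbi_gi_32128773_1098 differed with the cold by −0.41 in leaf and −0.008 in crown, under 2-fold in both, and it was higher in leaf than in crown by 2.74 at 24 °C.

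The 91 members above background everywhere had mean levels from −5.38 to 4.96 with a median of −1.66. The range over the 4 group means had a median of 2.32 on the log2 scale. It was over 4 in 21 of them, up to 7.75, and under 1 in 6. The smallest range belonged to ncbi_gi_32128610_1353, with group means of −1.02 ± 0.03 in leaf at 24 °C, −0.66 ± 0.08 in leaf at 4 °C, −0.61 ± 0.10 in crown at 24 °C and −1.09 ± 0.01 in crown at 4 °C (SD, n = 2). The next, ncbi_gi_40644779_305, had arrays at −0.93 and −1.21, −1.84 and −0.48, −1.67 and −1.61, and −1.77 and −1.79 in the same order of groups. Its 2 cold leaf arrays lay farther apart than any of its group means. The third was ncbi_gi_32128772_1204, with group means of −0.77 ± 0.03, −0.92 ± 0.07, −0.11 ± 0.03 and −0.52 ± 0.02 (SD, n = 2).

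Crown and leaf were compared first at 24 °C. A probe was called at a limma adjusted p below 0.05 (Benjamini-Hochberg) and a change of at least 2-fold. Over the whole array 54.9% of the probes tested were called, 29% with more signal in crown and 25.9% with more in leaf. Of the 132 GI-named probes tested, 46 had more signal in crown and 50 in leaf, and of these 20 and 40 were above background in both tissues. With only such probes tested, these were 21.3% and 42.6% of 94 members, against 24.2% and 24.6% over the array, and the median crown minus leaf difference of the members was −0.466, against 0.251 over the 132. At 4 °C 58.4% of the probes tested over the array were called, 34.6% in favour of crown and 23.8% of leaf. There 63 of 151 GI-named probes were called in favour of crown and 45 of leaf, 32 and 43 of them above background in both tissues. With only such probes tested, these were 27.8% and 37.4% of the members, against 28.9% and 25.2% over the array. Of the 128 members tested at both temperatures, 27.3% were higher in crown in both comparisons and 25.8% higher in leaf in both. Over the array these shares were 21.7% and 16%. A probe above background in either tissue alone could enter these shares. The split among probes above background in both tissues was not tested, so no balance between crown and leaf is read from them. Of the 91 members above background on all 8 arrays, 40 were called at both temperatures, 34 at one and 17 at neither. These shares were 44%, 37.4% and 18.7%, against 34.5%, 33.3% and 32.1% of the 24596 probes above background on all 8 arrays. Scaled to spike-in controls, the share of calls that were higher in crown went from 47.9% to 71.1% at 24 °C and from 58.3% to 81.8% at 4 °C. At 4 °C it was 46.9% after quantile normalization.

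The largest leaf excess at 24 °C among members above background on the arrays compared was that of ncbi_gi_32128933_1112. Its level was 5.31 and 5.35 in leaf at 24 °C, 5.45 and 5.47 in leaf at 4 °C, −1.40 and −1.36 in crown at 24 °C and −0.86 and −0.87 in crown at 4 °C. The leaf arrays were at one level and the crown arrays at another, at either temperature. Crown was lower than leaf by a level difference of −6.71 at 24 °C (SE 0.0476, adjusted p = 1.39e-08, limma with Benjamini-Hochberg adjustment) and −6.33 at 4 °C. The cold differences of 0.13 in leaf and 0.52 in crown were under 2-fold.

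Next in order was ncbi_gi_32128834_646, at 2.89 and 2.80 in leaf and −3.15 and −2.98 in crown at 24 °C, and at 3.49 and 3.46 in leaf and −1.48 and −1.55 in crown at 4 °C. It rose by 1.55 in the cold crown (SE 0.0774, adjusted p = 1.71e-05, limma with Benjamini-Hochberg adjustment), yet every leaf array stayed above every crown array. The third was ncbi_gi_24636982_552, at 3.19 and 3.17 in leaf and −1.99 and −2.11 in crown at 24 °C, a level difference of −5.23. Its leaf level rose by 1.01 in the cold, close to the 2-fold limit, and the call held under 20 of 22 alternative settings.

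In the other direction, the level of ncbi_gi_32128489_1189 at 24 °C was 3.82 and 3.79 in crown and −1.47 and −1.86 in leaf, a difference of 5.47 (SE 0.127, adjusted p = 2.74e-07, limma with Benjamini-Hochberg adjustment). At 4 °C the order turned, with −3.94 and −3.95 in crown and −1.61 and −1.61 in leaf, a difference of −2.33. For ncbi_gi_32128574_754 the crown excess was 4.37 at 24 °C and 3.28 at 4 °C. For ncbi_gi_469055_1362, with crown arrays at 0.11 and 0.14 and leaf arrays at −4.46 and −3.85 at 24 °C, it was 4.28, and at 4 °C 3.00.

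Some members were measurable in 1 tissue only. On all 4 crown arrays and on no leaf array 9 were above background. On all 4 leaf arrays and no crown array there was a single member, ncbi_gi_32128890_286, named here after its values were seen. No count over all probes is set beside these, so the split is not read as a trait of the members. Over all probes, too, detection was highest on the crown arrays at 4 °C. Where a group is not above background on either array, its level is a bound, and the fold is given as "at least". The dim group is then set, per array, at the higher of its own signal and the lowest signal called well above background. An adjusted p printed beside a bound comes from the fit on the signal as read and does not test the bound. Such a probe entered the comparison through the other group alone. The level of ncbi_gi_32128890_286 was −2.93 and −3.16 in leaf at 24 °C and −5.07 and −4.89 in leaf at 4 °C, at least 8.27-fold and 10.9-fold above crown.

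The strongest case in crown was ncbi_gi_6942301_1394, chosen after its values were seen, with levels of 3.34 and 3.36 in crown at 24 °C and 2.45 and 2.49 at 4 °C. Leaf was not well above background at either temperature, and crown was at least 746-fold above it at 24 °C and at least 1460-fold at 4 °C (adjusted p = 3.12e-08 and 3.43e-08, limma with Benjamini-Hochberg adjustment). In ncbi_gi_32400753_106, likewise not above background in leaf, crown was at least 33.3-fold higher at 24 °C and at least 470-fold at 4 °C.

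The cold response of the leaf compared 12 weeks at 4 °C with 24 °C. Of all probes tested, 33.6% were called, with 12.9% rising and 20.7% falling. Of the 121 GI-named probes tested, 17 rose and 42 fell, 13 and 33 of them above background at both temperatures. With only such probes tested, these were 12.9% and 32.7% of the members, against 2822 and 5432 of 26301 probes over the array. The other 117 members were not well above background on both arrays of either group. The median difference over the tested members was −0.451, and over all probes tested −0.0943. The share of calls that were rises, 28.8%, went to 41.8% after quantile normalization, 41.9% when medians were aligned, 49.2% when spike-in controls were, and 14.3% with normexp background correction of the spot signal. Spike-in scaling moved the median over all probes tested to 0.366.

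The largest rise was that of ncbi_gi_32128602_671. Its level was −4.59 and −4.00 in leaf at 24 °C and 1.67 and 1.69 in leaf at 4 °C. Its leaf level rose by 5.98, a 63-fold change (SE 0.182, adjusted p = 3.94e-06, limma with Benjamini-Hochberg adjustment).

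The second, ncbi_gi_32128824_1477, went from 0.47 and 0.52 to 3.68 and 3.65, a rise of 3.17 (SE 0.0835, adjusted p = 2.73e-06, limma with Benjamini-Hochberg adjustment). In crown its arrays lay between −2.47 and −1.74 at either temperature, below all leaf arrays. The third, ncbi_gi_32128805_453, went from −2.35 and −2.46 to 0.36 and 0.50, a rise of 2.84. The remaining members of the 5 largest, ncbi_gi_32128927_1375 and ncbi_gi_32482050_612, rose by 2.12 and 2.02, with limma adjusted p of 3.6e-06 and 3.14e-05.

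The largest fall above background at both temperatures was that of ncbi_gi_30025136_1079. The leaf arrays at 24 °C gave levels of 1.01 and 0.99, those at 4 °C −5.21 and −5.10. It fell by 6.15, a 71.1-fold change (SE 0.212, adjusted p = 5.59e-06, limma with Benjamini-Hochberg adjustment). In crown its arrays lay between −6.28 and −5.46 with no called change, so that the warm leaf arrays stood alone. The other large falls were those of ncbi_gi_32128613_1105 at −4.29, ncbi_gi_17226800_612 at −3.84, ncbi_gi_32128574_754 at −3.28 and ncbi_gi_32129005_1492 at −3.16. In ncbi_gi_17226800_612 the leaf arrays went from −1.02 and −1.13 to −4.91 and −4.91.

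A deeper fall went out of range. The level of ncbi_gi_23630508_1472 in leaf was −1.68 and −1.34 at 24 °C, and neither array at 4 °C gave a signal well above background, a fall of at least 92.6-fold (adjusted p = 1.47e-05, limma with Benjamini-Hochberg adjustment). In ncbi_gi_45390675_413, at −3.39 and −3.77 in leaf at 24 °C, the fall was at least 22-fold. This probe was not above background on either array of any other group. Both bounds hold for the main setting only. Over the alternative settings the log2 leaf differences ran from −8.07 to −2.97 in ncbi_gi_23630508_1472 and from −6.79 to −1.49 in ncbi_gi_45390675_413.

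In the reverse direction, 10 members were above background on both leaf arrays at 4 °C and on neither at 24 °C. No count over all probes is set beside the 10, and the lowest level called well above background was lower at 4 °C. The 4 highest were ncbi_gi_19032274_3934, ncbi_gi_5926681_1445, ncbi_gi_10442762_1870 and ncbi_gi_32129141_319. The level of ncbi_gi_19032274_3934 in cold leaf was −3.75 and −3.72, at least 5.49-fold above leaf at 24 °C (adjusted p = 1.7e-05, limma with Benjamini-Hochberg adjustment). That of ncbi_gi_5926681_1445 was −4.39 and −4.54, at least 3.31-fold above. For ncbi_gi_10442762_1870, at −5.88 and −6.09, the bound was at least 1.16-fold, and ncbi_gi_32129141_319, at −5.91 and −6.09, was not called. With normexp background correction the differences of ncbi_gi_5926681_1445, ncbi_gi_10442762_1870 and ncbi_gi_32129141_319 turned to −0.37, −0.88 and −0.90.

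The cold response of the crown compared 6 weeks at 4 °C with 24 °C. Of all probes tested, 36.3% were called, with 20.4% rising and 15.9% falling. Of the 152 GI-named probes tested, 22 rose and 36 fell, 14 and 31 of them above background at both temperatures. With only such probes tested, these were 11.9% and 26.3% of the members, against 17.8% and 16.7% over the array. The median difference over the tested members was 0.071, against 0.167 over all probes tested. Scaled to spike-in controls, the median over all probes tested was 1.06, and the share of calls that were rises went from 37.9% to 80.4%. It was 15% with normexp background correction and 23.3% with that followed by quantile normalization.

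The largest fall with signal above background at both temperatures was that of ncbi_gi_32128489_1189, from the crown levels of 3.82 and 3.79 given above to −3.94 and −3.95. It fell by 7.75, a 215-fold change (SE 0.127, adjusted p = 4.49e-07, limma with Benjamini-Hochberg adjustment). Its leaf arrays lay between −1.86 and −1.47 at both temperatures, with a cold difference of 0.052. The highest and the lowest arrays of this probe were thus both crown arrays.

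The next fall, of ncbi_gi_4218534_936, went from 1.04 and 1.03 to −5.58 and −5.39 in crown, and it fell by 6.52 (SE 0.0898, adjusted p = 2.8e-07, limma with Benjamini-Hochberg adjustment). In leaf its arrays were at 1.24 and 1.20 at 24 °C and 0.28 and 0.10 at 4 °C, a difference of −1.03 that was called under 16 of 22 alternative settings. The cold crown arrays alone were low. The third, ncbi_gi_32129005_1492, went from −0.29 and −0.39 to −6.10 and −5.95 in crown, and the fourth, ncbi_gi_32128574_754, from 4.05 and 4.13 to −0.26 and −0.30.

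The fifth was ncbi_gi_32128602_671, from −1.93 and −1.93 in crown at 24 °C to −5.90 and −5.95 at 4 °C. Out of range at 4 °C were ncbi_gi_23630508_1472 and ncbi_gi_32128545_346. The crown level of ncbi_gi_23630508_1472 at 24 °C was −0.67 and 0.35, 2 arrays farther apart than most, and the fall was at least 308-fold (adjusted p = 4.95e-06, limma with Benjamini-Hochberg adjustment). That of ncbi_gi_32128545_346 was −4.67 and −4.52, and the fall was at least 14.2-fold. These bounds, too, hold for the main setting only. Across the alternative settings the log2 crown difference of ncbi_gi_23630508_1472 ran from −10.8 to −4.06. That of ncbi_gi_32128545_346 ran from −5.91 to −0.76, at its smallest under 2-fold.

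Of the rises in crown, the largest above background at both temperatures was that of ncbi_gi_19849544_348, from −3.65 and −3.45 to −0.92 and −1.03, a rise of 2.57 (SE 0.0992, adjusted p = 6.91e-06, limma with Benjamini-Hochberg adjustment). Its leaf arrays were at 0.27 and 0.18 at 24 °C and −0.59 and −0.76 at 4 °C, above every crown array. The others were ncbi_gi_32400753_106 at 1.97, ncbi_gi_32400858_182 at 1.88, ncbi_gi_6682327_285 at 1.60 and ncbi_gi_32128771_630 at 1.58.

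In ncbi_gi_6682327_285 the crown arrays went from −3.76 and −3.76 to −2.09 and −2.24, next to the leaf arrays, which lay between −2.21 and −2.10 at both temperatures. In ncbi_gi_32400753_106 they went from −1.17 and −1.10 to 0.73 and 0.94.

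On both crown arrays at 4 °C and on neither at 24 °C 26 members were above background. Counting also those above background on a single crown array at 4 °C there were 33, and none had a bound of 2-fold or more. As for leaf, no count over all probes is given, and the lowest level called well above background was lower at 4 °C. The 4 brightest were ncbi_gi_40644807_175 at −5.52 and −5.31 in cold crown, ncbi_gi_32129011_102 at −5.43 and −5.41, ncbi_gi_40641588_488 at −5.38 and −5.62, and ncbi_gi_32128805_453 at −5.51 and −5.70. Their bounds were at least 1.6-fold, 1.48-fold, 1.5-fold and 1.4-fold in that order, and ncbi_gi_32129011_102 was not called. With normexp background correction the crown differences of ncbi_gi_40644807_175, ncbi_gi_32129011_102, ncbi_gi_40641588_488 and ncbi_gi_32128805_453 turned to −0.32, −0.46, −0.30 and −0.30.

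The responses of the tissues were set side by side. Of the 118 members tested in both, 13 or 11% fell in both, against 6.17% of all probes tested in both. These 13 were 31% of the leaf falls and 36.1% of the crown falls. Rises in both tissues were seen in 4 members, 3.39% against 3.88% of all probes, which were 23.5% of the leaf rises and 18.2% of the crown rises. The 4 were ncbi_gi_22900940_19, ncbi_gi_32400858_182, ncbi_gi_32482050_612 and ncbi_gi_32128805_453, of which the first was named after its values were seen. In crown at 24 °C ncbi_gi_32128805_453 was not above background. Its crown rise was at least 1.4-fold and turned to −0.30 with normexp background correction. The levels of ncbi_gi_22900940_19 were −0.07 and −0.07 and then 1.49 and 1.38 in leaf, and −1.68 and −1.70 and then −0.63 and −0.60 in crown. In ncbi_gi_32482050_612 they went from −1.55 and −1.88 to 0.24 and 0.37 in leaf, and from −2.61 and −2.67 to −1.13 and −1.20 in crown.

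Opposite calls were made in 4 members, 2 of them raised in leaf and lowered in crown (1.69%, against 1.65% of all probes) and 2 the other way round (1.69%, against 3.51%). One of each kind was above background on all 8 arrays. Both were named for their opposite calls, so a large difference between their responses followed from that choice. In ncbi_gi_32128602_671, which rose in leaf by 5.98, the crown change was −4.00 (SE 0.182, adjusted p = 1.25e-05, limma with Benjamini-Hochberg adjustment). The crown response minus the leaf response was −9.97 (SE 0.258, adjusted p = 2.13e-06). At 24 °C crown was above leaf in this probe by 2.36, and at 4 °C below it by a difference of −7.61.

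In ncbi_gi_32128613_1105 the leaf arrays went from −1.66 and −1.96 to −5.89 and −6.31, and the crown arrays from −5.13 and −5.30 to −3.75 and −3.74. The responses differed by 5.76 (SE 0.239, adjusted p = 1.05e-05, limma with Benjamini-Hochberg adjustment). Leaf and crown changed places in this probe too. The other members with opposite calls were ncbi_gi_19032274_3934, at −2.65 and −2.68 in crown at 24 °C and −6.36 and −6.71 at 4 °C, and ncbi_gi_32128974_763, at 0.85 and 0.87 in leaf at 24 °C and −0.69 and −0.86 at 4 °C. In each of them 1 group was not above background, leaf at 24 °C in the first and crown at 24 °C in the second. The crown arrays of ncbi_gi_32128974_763 were at −8.26 and −8.24 at 24 °C and at −5.52 and −5.73 at 4 °C. The bound on that crown rise was under 2-fold. Of the 91 members above background on all 8 arrays, 16 responded to cold with a call in both tissues, 44 in one and 31 in neither. These shares were 17.6%, 48.4% and 34.1%, against 13.1%, 37% and 49.9% of all probes above background on all 8 arrays.

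The difference between the responses was tested for all probes with the interaction term: 45.8% of those tested were called, 29.3% with the higher response in crown and 16.4% with the lower. Of 155 GI-named probes tested, 56 were higher and 26 lower, 28 and 18 of them above background on all 8 arrays. With only such probes tested, these were 30.8% and 19.8% of the members, against 25.6% and 16% over the array. The share of calls that were higher, 68.3%, was 54.2% after quantile normalization, 57.3% with scaling to the median, 79.6% with spike-in scaling and 44.4% with normexp followed by quantile normalization.

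The GI numbers themselves fall into runs, since records deposited together were numbered together. With gaps of up to 10 joined, the 238 numbers formed 106 runs, of which 77 hold a single member, 29 hold at least 2, and 9 at least 5. The largest holds 31. Members of a run may share a source, and some may share sequence, which the files used here do not show. The second number of the name ran from 1 to 3934, and its meaning is not stated in the sources used here.

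Detection differed between runs. In the run from 24461288 to 24461302, described in more detail after its values were seen, all 5 members were above background on all 8 arrays, with a median level of 0.33. In the run from 32128675 to 32128745, 20 of 30 members were above background on no array and 3 on all 8, with a median of −9.08. In the largest, from 32128887 to 32128993, 14 of 31 were above background on no array and 8 on all 8. Over the 123 members with GI numbers from 32128489 to 32129191, 38.2% were above background on no array, against 18.3% of the other 115.

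Within the run from 24461288 to 24461302 the members differed in their cold calls. The 8 levels of ncbi_gi_24461296_103 were 2.18 and 2.44 in leaf at 24 °C, 0.51 and 0.58 in leaf at 4 °C, 2.43 and 2.70 in crown at 24 °C and 1.16 and 1.14 in crown at 4 °C. Its changes of −1.76 in leaf and −1.42 in crown were called, as were those of ncbi_gi_24461288_45, −1.83 and −1.29 (limma with Benjamini-Hochberg adjustment, adjusted p of 6.52e-05, 0.000151, 0.000184 and 0.000839 in that order). In ncbi_gi_24461302_72 the leaf change of −2.77 was called (limma adjusted p = 7.93e-05) and the crown difference of −0.89 was under 2-fold. In ncbi_gi_24461290_194 and ncbi_gi_24461294_1 the leaf differences were −0.93 and −0.63, and the crown differences 0.21 and −0.33, none of them 2-fold.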

How the data were processed

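Total RNA of leaf and crown was hybridised to 8 one-colour arrays, 2 per group, grouped by their titles. Per the file headers, intensity values came from Agilent Feature Extraction. The headers of the 24 °C arrays give version 9.5.3.1 in leaf but 10.7.3.1 in crown, those of the 4 °C arrays 10.5.1.1 in either tissue, and the processing notes of the submitters 9.5. Both cold comparisons, crown against leaf at 24 °C and the difference between responses thus also compare software versions. The detection flags and spot classes, columns of kind other, were used as deposited. A further table of intensity values deposited by the authors was found to be the processed signal times a factor of 0.993 to 1.89 per array, set in a way that is not given in the sources used here.

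From the log2 processed signal of the 37826 non-control probes the array's 75th percentile was subtracted, and 1417 control spots were left out. Group means were fitted over 8 arrays (limma 3.58.1, R 4.3.3, residual df 4, prior df 1.55). A probe entered a comparison if both arrays of at least 1 group showed it well above background. Benjamini-Hochberg adjustment ran over all probes tested, and calls needed an adjusted p below 0.05 and a 2-fold change. The p-values reflect only how far these arrays of a group differ, and 8 arrays limit the precision. For 2 arrays against 2 the smallest two-sided p of an exact permutation test is 0.333, so none was used.

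The members and lists were chosen with earlier results of these data known. Named were, per tissue, the 5 largest rises and falls above background on the arrays compared and up to 4 members per direction detected at 1 temperature only. Also named were the 3 largest differences between tissues at 24 °C in each direction, the 5 highest mean levels, the 3 smallest ranges and opposite calls. A normexp alternative planned on the spot signal used the median spot signal. Alternatives covered scaling, background correction, filters, the authors' table, blocks and single arrays left out. No probe sequences or gene annotation were used.

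The arrays lay on 5 slides and were scanned on 4 days with 2 scanners. Each group had its own scan day, so that group and scan day cannot be told apart. Both leaf arrays at 24 °C, and no others, were read on 1 of the scanners, so the leaf cold response, crown against leaf at 24 °C and the difference between responses also compare scanners.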

Additional observations from a re-analysis of the deposited data

Results flagged for a closer look

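The cold responses of leaf and crown differed, by the interaction term of the limma fit, in 56 GI-named probes with the higher value in crown and 26 with the lower. These were 36.1% and 16.8% of the members tested, against 29.3% and 16.4% over the array. Of the 56 and 26, 28 and 18 were above background on all 8 arrays. With normexp and quantile normalization the counts were 16 and 20, or 10.3% and 12.9%, against 14.7% and 13.9% over the array. The split under other scalings stands in the report. The 2 members above background on all 8 arrays that were called in opposite directions were named for those calls. A large difference between their responses followed from that choice, so its test adds no support. The crown response minus the leaf response was −9.97 in ncbi_gi_32128602_671 and 5.76 in ncbi_gi_32128613_1105, and both were called under each of the 22 alternatives. Tissue cannot be told apart here from weeks at 4 °C, age, scan day or software version.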

How the results depend on the processing

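Of 264 counts and medians under the alternatives, 223 stayed close, among them each value with 1 array left out. Close meant within 1.5 times for a count, and for a median within the median limma standard error of members tested. Without single arrays the leaf rises numbered 14 to 20 and the falls 39 to 47, the crown rises 22 to 24 and the falls 34 to 38. Where values moved, the cause was not tested. Leaf rises were 26 with scaling to the median and 30 to spike-in controls. They were 8 with normexp and the 75th percentile, 9 with normexp and quantile normalization and 33 without a fold threshold. In that order these were 21.5%, 24.8%, 6.61%, 7.44% and 27.3% of members tested, against 18.2%, 25%, 6.68%, 9.27% and 35.1% over the array. Leaf falls were 23 with normexp and quantile normalization, 138 without the filter on dim probes and 65 without a fold threshold. Their shares were 19%, 58% and 53.7%, against 10.4%, 32.3% and 42.1% over the array. Crown rises were 74 with spike-in scaling and 6 and 7 with the normexp settings in that order. They were 14 with detection required on all arrays compared and 54 without a fold threshold. Their shares were 48.7%, 3.95%, 4.61%, 11.9% and 35.5%, against 52.2%, 9.78%, 11.4%, 17.8% and 43.4% over the array. Crown falls were 18, 23 and 107 with spike-in scaling, normexp with quantile normalization and no filter. These made up 11.8%, 15.1% and 45% of members tested, against 7.6%, 11% and 24.9% over the array. Of the differences between responses, those higher in crown were 29 and 16 with the normexp settings, 37 with a common floor and 28 with the filter on all arrays. At 24 °C, members higher in crown were 28, 29 and 20 with the normexp settings and that filter, and those higher in leaf 28 with spike-in scaling. At 4 °C, members higher in crown were 99 with spike-in scaling, 35 and 23 with normexp, 40 with the floor and 32 with that filter, and those higher in leaf 22 with spike-in scaling. The median leaf difference was −0.17 after quantile normalization, −0.222 with median scaling, 0.00991 with spike-in scaling, −0.826 and −0.126 with normexp, −0.287 with the floor and −1.61 without a filter. The median crown difference was 0.967 with spike-in scaling, −0.386 with normexp and the 75th percentile, −0.922 without a filter and −0.0574 with the filter on all arrays. Of 868 values of named probes, 843 stayed on their side of the threshold and, where called, kept their direction. Settings under which a named probe was not tested are left out of the 868. This concerns members detected at 1 temperature only, where detection was required on all arrays compared. With normexp and the 75th percentile 5 called differences turned: −0.37 in ncbi_gi_5926681_1445 and −0.88 in ncbi_gi_10442762_1870 in leaf, and −0.32 in ncbi_gi_40644807_175, −0.30 in ncbi_gi_40641588_488 and −0.30 in ncbi_gi_32128805_453 in crown. There the uncalled differences of ncbi_gi_32129141_319 in leaf and ncbi_gi_32129011_102 in crown also turned, to −0.90 and −0.46.

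With the replicate number as a block, calls were 16 and 42 in leaf, 22 and 36 in crown, 57 and 27 for the difference, 46 and 50 at 24 °C and 62 and 45 at 4 °C, higher and lower in turn. The deviations of same-numbered arrays correlated over 24596 probes at 0.00159 within leaf, −0.0731 within crown, 0.104 between leaf and crown at 24 °C, 0.0392 between them at 4 °C and −0.0942 and −0.0093 in the other pairs of groups. Not every pair exceeded 0.1, and the numbers were not treated as pairs. With slide as a random block the cold calls were 18 and 42 in leaf and 23 and 36 in crown. Only leaf at 24 °C spans several slides, so slide effects stayed largely untested. Signal near background is a limit: where a group was not well above it, the differences are bounds, and the lowest detectable level differed between groups.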
